A study of Brassica napus with 17 samples.

Results

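A set of 28 Brassica napus (oilseed rape) genes was near silent in freshly isolated microspores and abundant in every culture that was sequenced. The genes were chosen by their measured levels. In the log2 CPM values that the authors deposited (counts per 1000000, log2 scale), the day 0 group mean had to be at most 0, which is 1 CPM, and each of the 5 culture group means at least 4, which is 16 CPM. Of 68491 genes with deposited log2 CPM values, 28 met these conditions. The contrast of cultures with day 0 therefore chose the genes, and it is described here without a test. The rule set the same floor in all 5 culture groups and no upper limit, and the levels within the cultures were compared by test. These tests use the same libraries as the rule, and the floor removed most genes in heat alone day 2, as given below. The shares of all genes set beside the members come from genes that faced no such floor. What the floor did to the comparisons was not tested.

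A microspore is the immature male gametophyte, which in the anther develops into a pollen grain. Isolated microspores of B. napus that are held at a raised temperature can leave this path, divide and form haploid embryos. Trichostatin A (TSA) inhibits histone deacetylases, the enzymes that remove acetyl groups from histones, and acetylated histones are found at active genes. The question put to these genes is how far their levels in culture depended on TSA and on time.

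All libraries came from DH12075, a doubled haploid line, with a LEC1-GFP reporter, and the cultures started from late unicellular microspores. Untreated microspores were taken at day 0 (3 libraries). Heat alone was 24 h at 33 °C followed by 25 °C for 1 day (day 2, 3 libraries) or 3 days (day 4, 3 libraries), a treatment the labels give as inducing embryogenesis. Heat plus TSA, given as inducing callus, combined the same heat with TSA for 24 h, after which TSA was removed, and was sampled at day 2 (3 libraries), day 4 (3 libraries) and, after 7 days at 25 °C, day 8 (2 libraries). TSA was given at 0.5 µM for day 2 and 0.05 µM for day 8. For day 4 the titles of the samples give 0.5 µM and their treatment field 0.05 µM, so the dose of that group is not certain. A comparison with day 8 sets different doses as well as different times beside each other, and there was no heat-alone day 8 group and no culture without heat.

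Total counts per library ran from 2716279 (day 0 replicate 3) to 31407037 (heat plus TSA day 4 replicate 1). A sequencing run is named in the labels for day 0, heat plus TSA day 2 and heat plus TSA day 8, the same run for all of them, and for no other group, so a named run and the group cannot be told apart where heat plus TSA day 2 is compared with heat alone day 2, or where heat plus TSA day 4 is compared with day 2 or day 8. At day 4 no run is named for either treatment. The series design calls the replicates biological. Each library was made from 400000 to 1000000 microspores, and in such bulk samples fewer cells of a type and less RNA per cell cannot be told apart. The labels call the day 0 cells microspores and the cultured cells a mixture of microspores and embryogenic cells. These names could not be checked against marker genes, because the files pair the gene IDs with no names. The reference used here, assembly Da-Ae, lists BnaA02g24080D as a protein-coding gene and gives no member another name, so roles of the 28 genes are not stated. Many genes of B. napus exist as very similar A and C subgenome copies, and it is not known how the authors assigned reads that match both, so a count may hold reads of a second copy.

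In all, 30097 of the 68491 genes were at or under the day 0 limit. Of these, 1337 reached the culture limit in heat alone day 2, 2610 in heat alone day 4, 1384 in heat plus TSA day 2, 1880 in heat plus TSA day 4 and 1161 in heat plus TSA day 8. Heat alone day 2 was the condition that removed most genes. Without it 165 genes would have been chosen in place of 28, while without heat plus TSA day 8 there would have been 64, without heat plus TSA day 4 there would have been 29, and without heat alone day 4 or without heat plus TSA day 2 again 28. The 165 genes were not absent from heat alone day 2: their median there was 2.55 log2 CPM, 134 lay between the limits and 3 were at or under the day 0 limit. Just inside the culture limit stood BnaC01g20930D, at 4.00 log2 CPM in heat alone day 2, and BnaC08g10640D, at 4.00 in heat plus TSA day 8. Just outside it stood BnaAnng08670D at 3.99 and BnaC06g39280D at 3.96, both in heat alone day 2. At the day 0 limit BnaC05g07900D was inside at 0 and BnaA02g34120D at -0.05 log2 CPM, while BnaA01g36840D at 0.02 and BnaA07g30430D at 0.11 were outside.

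Together the 28 genes held very few of the counts at day 0 and over 1% of all counts in every heat plus TSA library. Their share of a library's counts was 0.00167% ± 0.000551 (SD, n = 3) at day 0. It was 0.0845% ± 0.0215 (SD, n = 3) in heat alone day 2 and 0.285% ± 0.0848 (SD, n = 3) in heat alone day 4. In heat plus TSA it was 1.81% ± 0.303 (SD, n = 3) at day 2, 2.64% ± 0.350 (SD, n = 3) at day 4 and 1.46% ± 0.334 (SD, n = 2) at day 8. The groups at day 0, heat alone day 2, heat alone day 4, heat plus TSA day 2 and heat plus TSA day 4 followed each other without overlap, and the day 8 range, 1.22% to 1.70%, overlapped only that of heat plus TSA day 2, 1.46% to 2.02%. At day 8 BnaC04g45790D alone held 55.4% ± 7.24 (SD, n = 2) of the counts of the 28 genes. The median level of the 28 genes, given below, was lower at day 8 than in heat alone day 4.

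**Figure D1:**
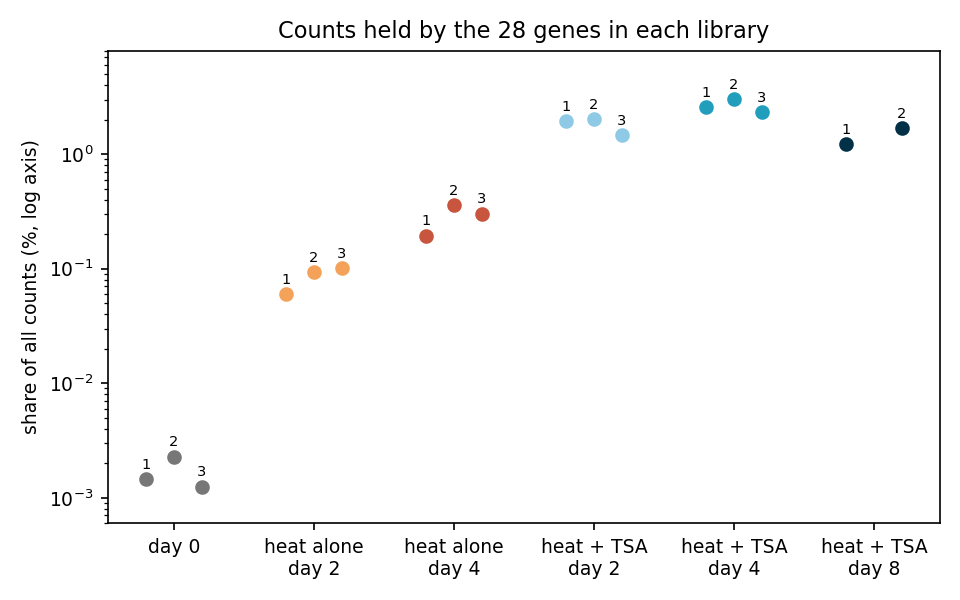
Share of all counts held by the 28 genes (percent, log axis) in each of the 17 libraries, numbered by replicate and placed by group. The heat-alone libraries sit between 0.0602% and 0.361% and every heat plus TSA library between 1.22% and 3.02%.

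Levels below are CPM with TMM-scaled library sizes, computed from the raw counts, with means over the replicates of a group. The median level of the 28 genes was 0.315 CPM at day 0, 27.4 in heat alone day 2, 143.9 in heat alone day 4, 373 in heat plus TSA day 2, 587 in heat plus TSA day 4 and 81.3 in heat plus TSA day 8. No member was at 0 counts in all 3 day 0 libraries. The counts of a member summed over day 0 ran from 1 to 89, with a median of 25.5, and 17 members had at least 1 count in each day 0 library. Each of the 28 genes was higher in every one of the 14 culture libraries than in any day 0 library, as were 8.70% of all genes tested, a property that follows closely from how the 28 were chosen. The group mean of the lowest culture was 19.9 to 1466 times the pooled day 0 level, with a median of 71.8, and that of the highest culture 121 to 19790 times, with a median of 2165. The lowest day 0 level belonged to BnaC07g45470D, with 1 count in the 3 libraries, so its ratio of 1466 has a 95% exact Poisson interval, for counting error at day 0 only, of 263 to 57920.

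On the deposited log2 CPM scale, the culture with the lowest group mean was heat alone day 2 for 22 members, heat plus TSA day 8 for 4, and heat plus TSA day 2 and day 4 for 1 each. The highest mean was in heat plus TSA day 4 for 17 members, in heat plus TSA day 2 for 4, in heat alone day 4 for 3, and in heat alone day 2 and heat plus TSA day 8 for 2 each. Within a group, many of the 28 genes had the same replicate lowest. Heat alone day 2 replicate 1 was the lowest of its 3 for 23 of the 28 genes, against 42.7% of the 42489 genes with a mean over 0 log2 CPM. Heat alone day 4 replicate 1 was lowest for 25, against 50% of those genes, and heat plus TSA day 8 replicate 1 was the lower for 26, against 56.7%. The part of these differences between replicates in the results below was not tested beyond leaving each library out. In every single library, and not only on the mean, 12 of the 28 genes met the limits.

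**Figure D2:**
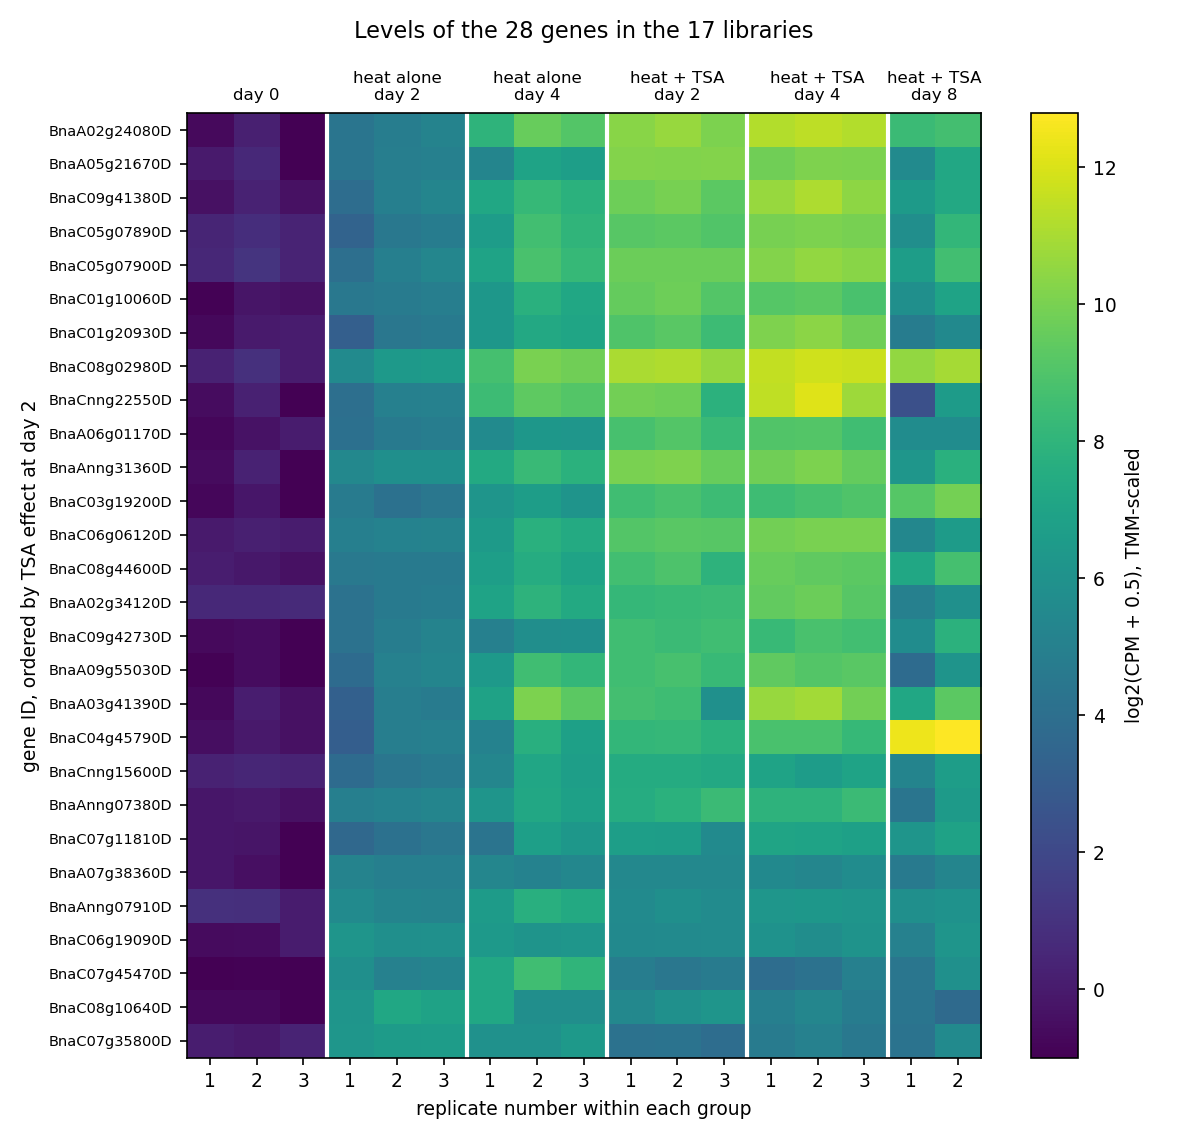
Level of each of the 28 genes (rows, ordered by the TSA effect at day 2) in each of the 17 libraries (columns, by group and replicate number), as log2(CPM + 0.5) in colour. Day 0 is dark throughout, most upper rows brighten from heat alone to heat plus TSA, and the 6 lowest rows hold the genes that were not called higher with TSA on either day.

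Most of the 28 genes were far more abundant with TSA than with heat alone at day 2. By edgeR's quasi-likelihood test with Benjamini-Hochberg adjustment over 64330 genes, 22 were higher in heat plus TSA, 2 were lower and 4 were not called at an adjusted p under 0.05. Among all genes tested 34.8% were called higher and 31.6% lower. The median log2 difference of the 28 genes was 3.87, with a range of -2.38 to 5.58, and that of all genes 0.06. For 24 of the 28 every heat plus TSA library was above every heat-alone library, which held for 38.0% of all genes, and for 3 every one was below, as for 35.3% of all genes.

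BnaA02g24080D had the largest difference at day 2. Its level was 0.135, 0.646 and 0 CPM in the day 0 libraries, 20.4, 28.1 and 35.9 in heat alone day 2, and 1308, 1647 and 1086 in heat plus TSA day 2. The groups did not overlap, and the log2 difference was 5.58 ± 0.503 (SE, adjusted p = 6.1e-08). BnaA02g34120D, with the lowest p among the genes that were higher, stood at 17.6, 23.9 and 26.8 CPM in heat alone day 2 and at 293, 309.9 and 343 in heat plus TSA day 2. This is a log2 difference of 3.79 ± 0.293 (SE, adjusted p = 1.1e-08). BnaA06g01170D rose from 16.6, 24.5 and 28.4 CPM with heat alone to 442, 547 and 329 CPM with TSA, by 4.24 ± 0.329 on the log2 scale (SE, adjusted p = 1.1e-08). Both genes had replicates far closer to each other than the treatments were.

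The genes that were lower with TSA at day 2 were BnaC07g35800D and BnaC08g10640D. BnaC07g35800D stood at 76.4, 93.6 and 96.6 CPM in heat alone day 2 and at 17.7, 18.4 and 14.9 in heat plus TSA day 2, with a log2 difference of -2.38 ± 0.268 (SE, adjusted p = 7.8e-07). BnaC08g10640D stood at 71.4, 148.7 and 121.7 CPM against 42.1, 59.9 and 72.5, so that its groups overlapped between 71.4 and 72.5. Its difference of -0.97 ± 0.362 (SE, adjusted p = 0.027) was lost under 7 of 24 alternatives, with an adjusted p of up to 0.49, and without heat alone day 2 replicate 2 it was -0.68 (adjusted p = 0.13).

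At day 4 the same comparison again gave more genes higher with TSA, by smaller differences. In edgeR's test 19 members were higher, 4 lower and 5 not called, where 40.3% of all genes were higher and 27.3% lower. The median log2 difference was 1.96, with a range of -3.64 to 3.48, and that of all genes 0.44. With library totals in place of TMM scaling the split was 24 higher and 1 lower, and the median of all genes 1.58. Of all genes called, 80.8% were higher with library totals and 59.6% with TMM scaling. The TMM factors ran from 0.44 to 0.61 in heat alone day 4 and from 1.11 to 1.15 in heat plus TSA day 4. All 19 genes higher at day 4 were also among the 22 higher at day 2. These comparisons share no libraries, but they come from the same fit. All groups compared also served to choose the genes, so the overlap is not separate support. The 3 others higher at day 2, BnaA03g41390D, BnaC07g11810D and BnaCnng15600D, had log2 differences of 1.26, 0.86 and 0.29 at day 4 that were not called.

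BnaA06g01170D had the lowest p at day 4 among the genes that were higher, at 48.8, 78.6 and 74.7 CPM in heat alone day 4 and 520.3, 544 and 379 in heat plus TSA day 4, a log2 difference of 2.83 ± 0.309 (SE, adjusted p = 5.7e-07). BnaC06g06120D stood at 92.2, 216 and 175 CPM with heat alone and at 942, 1041 and 1049 with TSA, a log2 difference of 2.65 ± 0.316 (SE, adjusted p = 1.6e-06). No library of either gene overlapped between the treatments. BnaA09g55030D, with a difference of 1.32 ± 0.559 (SE, adjusted p = 0.048), was the weakest of the 19, and its call held in 6 of 24 alternatives.

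The 4 genes lower with TSA at day 4 were the pair already lower at day 2 and 2 more. BnaC07g45470D stood at 156, 377 and 262 CPM in heat alone day 4 and at 14.5, 17.7 and 31.7 in heat plus TSA day 4, a log2 difference of -3.64 ± 0.435 (SE, adjusted p = 2.6e-06). At day 2 it stood at 57.2, 33.4 and 37.4 CPM with heat alone and 28.1, 21.4 and 26.5 with TSA, a difference of -0.75 that was not called. BnaAnng07910D stood at 95.9, 206 and 166 CPM against 76.2, 78.8 and 73.2 at day 4, a difference of -1.04 ± 0.234 (SE, adjusted p = 0.0009) that was 0.16 with library totals. BnaC07g35800D was still lower at day 4, at 62.4, 61.5 and 82.9 CPM with heat alone and 26.0, 32.5 and 22.2 with TSA, by -1.36 ± 0.261 (SE, adjusted p = 0.0002), although with library totals the difference was -0.22 (adjusted p = 0.45). BnaC08g10640D stood at 149, 55.4 and 55.3 CPM against 30.7, 39.3 and 26.8, by -1.42 ± 0.368 (SE, adjusted p = 0.003), and 1 of 24 alternatives lost this call, with a difference of -0.37.

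The log2 TSA effect itself was lower at day 4 than at day 2 for most members. In the test of the difference of effects 17 genes had a lower log2 effect at day 4, 1 a higher and 10 were not called, where 10.5% of all genes were lower and 14.3% higher. Among the 17, BnaC07g45470D and BnaAnng07910D were not called at day 2 and were lower with TSA at day 4. For these genes a lower log2 effect was not a smaller effect. The median of the difference was -1.79 for the 28 genes and 0.08 for all genes. Among the 19 genes higher with TSA on both days the day 2 effect ran from 2.85 to 5.58 (7.19- to 47.8-fold) and the day 4 effect from 1.28 to 3.48 (2.42- to 11.2-fold), and 14 of them had a called difference. The largest fall was that of BnaA02g24080D, by 3.31 ± 0.600 (SE, adjusted p = 0.0013), followed within this pattern by BnaC01g10060D, BnaC05g07890D, BnaC05g07900D and BnaC08g02980D with differences of -2.88, -2.84, -2.68 and -2.66. The higher effect was that of BnaC07g35800D, a less negative one, at 1.02 ± 0.363 (SE, adjusted p = 0.0495), and 18 of 24 alternatives lost it. Its value moved by over 1.5 times without heat alone day 2 replicate 2 or 3 (0.66 and 0.63) and without heat alone day 4 replicate 1 or 2 (0.59 and 0.66), and none of these was called.

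**Figure D3:**
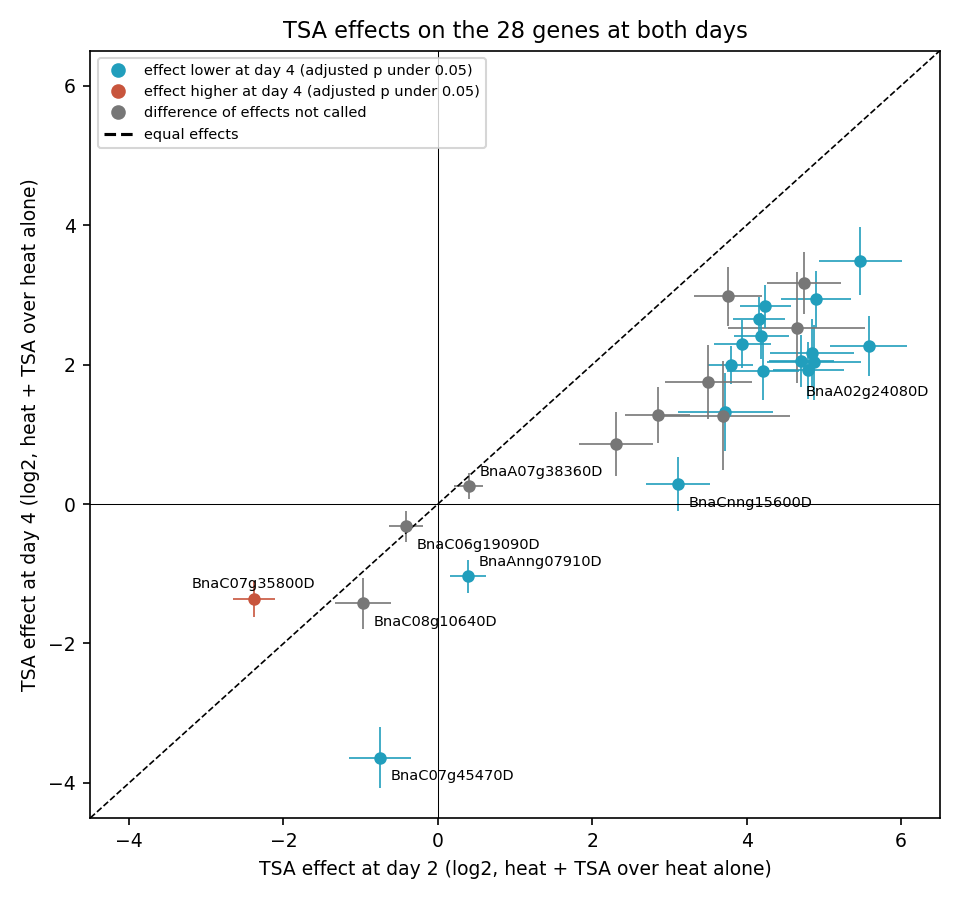
TSA effect on each of the 28 genes at day 2 (x axis) and day 4 (y axis), both as log2 of heat plus TSA over heat alone with SE bars, coloured by the test of the difference. Most points lie in the upper right below the dashed line of equal effects, and BnaC07g35800D lies above that line at -2.38 and -1.36.

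In heat alone most members went on increasing between day 2 and day 4. In edgeR's test 23 of 28 were higher at day 4, none was lower and 5 were not called (1 of these at an unadjusted p under 0.05), where 22.2% of all genes were higher and 23.2% lower. DESeq2, the other tool run, called 26 higher and none lower. Of all genes called, 67.4% were higher with DESeq2 and 48.9% with edgeR. With library totals in place of TMM scaling 23 members were higher and 1 lower, and 21.5% of all genes called were higher. The median log2 difference with edgeR was 2.32, with a range of -0.40 to 4.85. That of all genes was 0 with edgeR, 0.31 with DESeq2 and -0.70 with library totals. This comparison shares its libraries with the TSA comparisons above, so the values are given side by side and not as separate support.

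BnaA02g34120D had the lowest p, with 126, 238 and 167 CPM in heat alone day 4 after 17.6, 23.9 and 26.8 at day 2, a log2 difference of 2.96 ± 0.283 (SE, adjusted p = 3.3e-06). BnaA02g24080D stood at 249, 756 and 552 CPM at day 4, and its difference was 4.20 ± 0.471 (SE, adjusted p = 7.6e-06). In both genes replicate 1 was the lowest at day 4 and still above every day 2 library. The largest difference, 4.85 ± 0.908 (SE, adjusted p = 0.0005), was that of BnaA03g41390D, whose day 4 libraries spread from 122 to 1088 CPM. The 5 genes without a call were BnaA07g38360D, BnaC06g19090D, BnaC07g35800D, BnaC08g10640D and BnaC09g42730D, with differences of 0.26, 0.27, -0.37, -0.40 and 0.86.

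Between day 2 and day 4 of heat plus TSA edgeR's fit of all groups called little, in the members as in all genes. The median difference, given below, was larger in the members than in all genes. So were the shares higher at day 4 by overlap of libraries and in the authors' deposited table. The members had to reach the floor in both groups, while all genes faced no floor. What this did to these values was not tested. In edgeR's test 1 member was higher, none was lower and 27 were not called, and 4.04% of all genes were higher and 2.36% lower. At an unadjusted p under 0.05 there were 10 more members, and all genes were not counted at that threshold. The median log2 difference was 0.58, with a range of -0.85 to 2.42, and that of all genes 0.04. The called gene, BnaA02g34120D, went from 293, 309.9 and 343 CPM to 702, 815 and 602, a difference of 1.16 ± 0.265 (SE, adjusted p = 0.015), and the groups did not overlap. It was not called without heat plus TSA day 2 replicate 1 (1.11, adjusted p = 0.082) or without heat plus TSA day 4 replicate 2 (1.05, adjusted p = 0.062). For 17 members every day 4 library was above every day 2 library, against 17.5% of all genes, and for 3 every one was below, against 12.3%. DESeq2 called 2 higher and none lower, and 59.4% of all genes that it called were higher. In the authors' deposited table, 8 of the 28 genes were higher at a false discovery rate under 0.05 and none was lower, where 5.12% of all its genes were higher and 3.06% lower. The largest estimate, 2.42 for BnaA03g41390D, was not called: its day 2 libraries held 405, 365 and 60.4 CPM and its day 4 libraries 1619, 1885 and 933.

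At day 8 most members were lower than at day 4, by a median of -2.11 on the log2 scale over a range of -5.93 to 3.98, where the median of all genes was -0.29. In edgeR's test 17 were lower, 2 higher and 9 not called, and 35.0% of all genes were lower and 23.4% higher. Within the named run, day 8 against day 2 gave 17 lower, 3 higher and 8 not called, where 33.2% of all genes were lower and 24.4% higher, with a median of -1.77 for the members and -0.17 for all genes. These comparisons share the day 8 libraries, and that of day 8 with day 2 was added with the other results known.

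BnaA02g34120D fell from 702, 815 and 602 CPM at day 4 to 31.2 and 60.7 at day 8, by 3.94 ± 0.350 on the log2 scale (SE, adjusted p = 1.4e-07). BnaC06g06120D fell from 942, 1041 and 1049 CPM to 40.8 and 94.9, by 3.90 ± 0.396 (SE, adjusted p = 6.0e-07). BnaA06g01170D stood at 51.1 and 52.5 CPM at day 8, -3.09 ± 0.368 on the log2 scale from its day 2 level (SE, adjusted p = 3.2e-06). The largest decrease was that of BnaCnng22550D, by 5.93 ± 1.13 (SE, adjusted p = 0.0004), from 2810, 4428 and 1723 CPM to 4.67 and 93.2, which differ widely from each other, and under 1 of the alternatives the difference was -9.33.

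BnaC04g45790D went the other way. It stood at 0.215, 0.466 and 0.262 CPM at day 0, at 8.11, 29.6 and 31.9 in heat alone day 2 and at 33.8, 206 and 116 in heat alone day 4. In heat plus TSA it stood at 280.2, 288 and 225 CPM at day 2, at 451, 448 and 301 at day 4, and at 5554 and 7092 at day 8. The day 8 level was higher than at day 4 by 3.98 ± 0.603 (SE, adjusted p = 4.0e-05) and than at day 2 by 4.58 ± 0.617 (SE, adjusted p = 1.3e-05), both on the log2 scale. At day 8 it alone held 55.4% ± 7.24 (SD, n = 2) of the counts of the 28 genes, while at day 4 of heat plus TSA the largest holder was BnaC08g02980D with 14.0% ± 1.60 (SD, n = 3). BnaC03g19200D was the other gene higher at day 8 than at day 4, at 561 and 979 CPM after 359, 435 and 500.0, a difference of 0.84 ± 0.339 (SE, adjusted p = 0.044) that was 0.37 (adjusted p = 0.43) without heat plus TSA day 8 replicate 2. BnaC07g35800D was the third gene higher than at day 2, at 18.9 and 48.2 CPM after 17.7, 18.4 and 14.9, by 0.98 ± 0.283 (SE, adjusted p = 0.0073), and its difference was 0.14 (adjusted p = 0.65) without that same library and 1.51 (adjusted p = 6.0e-05) without heat plus TSA day 8 replicate 1.

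The 10 members with the highest mean over the cultures were BnaC08g02980D, BnaA02g24080D, BnaC05g07900D, BnaAnng31360D, BnaC04g45790D, BnaC09g41380D, BnaA03g41390D, BnaCnng22550D, BnaC05g07890D and BnaA05g21670D, and all 10 were among the 22 higher with TSA at day 2. The mean over the cultures includes the heat plus TSA groups, day 2 among them, so this overlap is not separate support. CPM is not scaled for gene length, so this order is one of counts. BnaC08g02980D led it, with 0.754, 1.40 and 0.524 CPM at day 0, 48.7, 83.7 and 95.0 in heat alone day 2, and 424, 1050 and 879 in heat alone day 4. In heat plus TSA it stood at 2125, 2266 and 1559 CPM at day 2, 2987, 3502 and 3246 at day 4, and 1478 and 1983 at day 8. It held the largest share of the members' counts in heat alone day 4 and in heat plus TSA days 2 and 4. BnaAnng31360D stood at 42.5, 58.6 and 57.4 CPM in heat alone day 2 and at 1027, 1135 and 777 in heat plus TSA day 2, a log2 difference of 4.21 ± 0.471 (SE, adjusted p = 7.7e-07). BnaC09g41380D stood at 14.7, 30.6 and 37.9 CPM against 867, 993 and 626, and BnaA05g21670D at 19.8, 29.1 and 31.1 against 1202, 1147 and 1209, with differences of 4.90 and 5.47. Their levels at day 8 were 89.9 and 159 CPM for the former and 47.1 and 156 for the latter, below all of their heat plus TSA libraries at days 2 and 4.

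**Figure D4:**
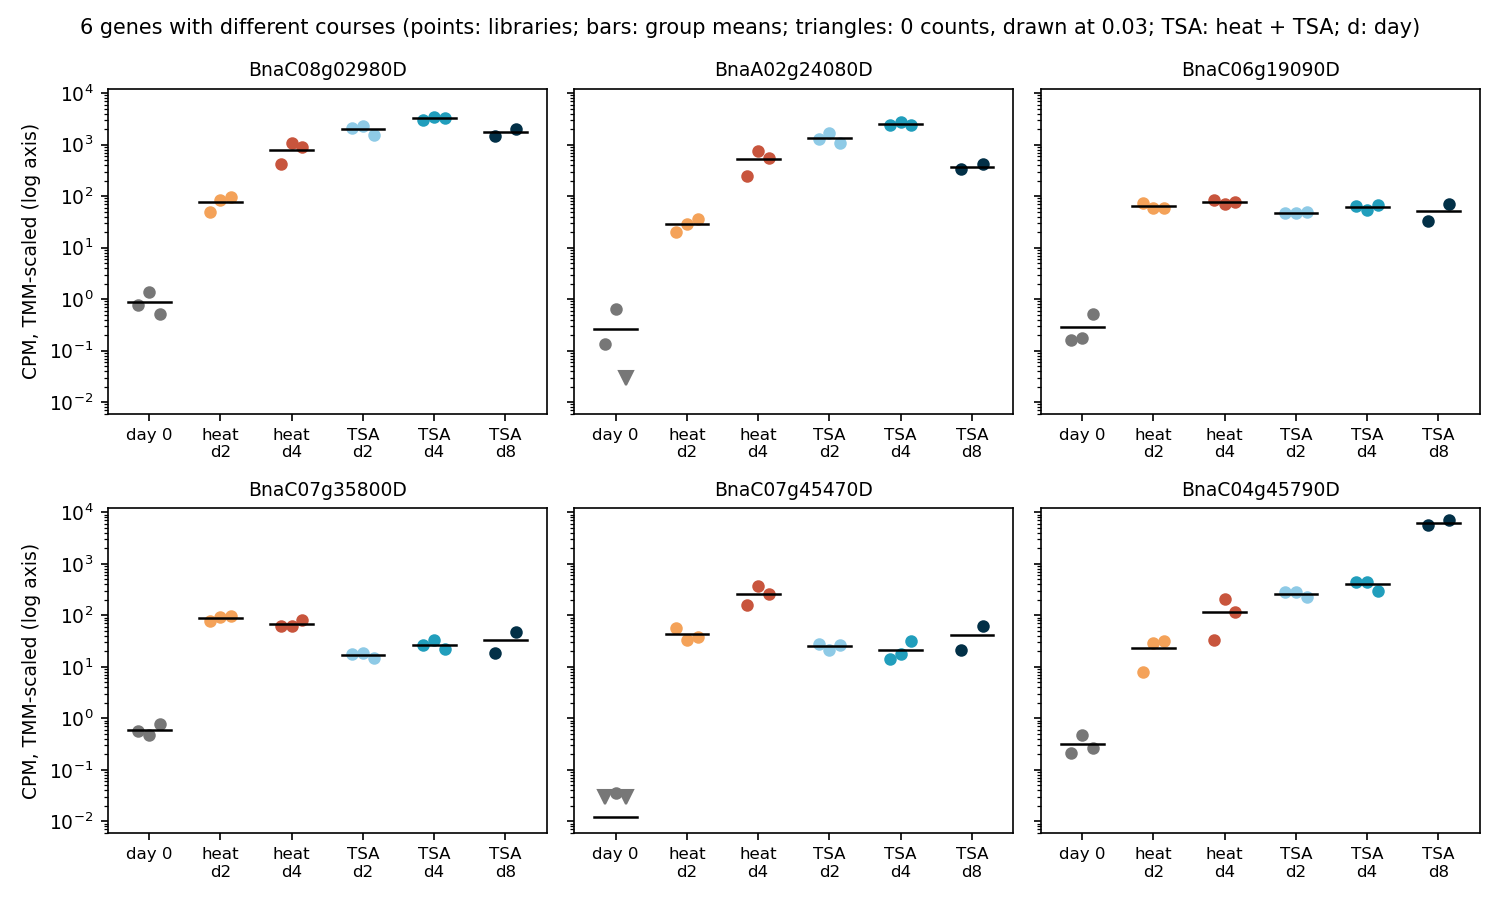
CPM (log axis) of 6 of the 28 genes in every library, by group, with bars at the group means and triangles for libraries with 0 counts. BnaC06g19090D is nearly level across the cultures, BnaC07g35800D is lower in heat plus TSA than in heat alone at days 2 and 4, BnaC07g45470D at day 4, and BnaC04g45790D reaches 5554 and 7092 CPM at day 8.

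A pair of members was nearly level across all cultures. Over the 5 culture means of log2 CPM, BnaA07g38360D had a range of 0.69 and BnaC06g19090D one of 0.79, against 2.08 for the next, BnaAnng07910D, and 6.62, 7.15 and 8.33 for the widest, BnaA02g24080D, BnaCnng22550D and BnaC04g45790D. BnaA07g38360D stood at 0.377, 0.251 and 0 CPM at day 0, at 35.6, 30.5 and 30.8 in heat alone day 2 and at 39.5, 34.5 and 41.8 in heat alone day 4. In heat plus TSA it stood at 42.7, 42.4 and 42.7 CPM at day 2, 46.2, 40.1 and 52.1 at day 4, and 24.4 and 37.7 at day 8. BnaC06g19090D stood at 0.162, 0.179 and 0.524 CPM at day 0 and between 33.4 and 84.2 in all 14 culture libraries. Neither was called for TSA on either day: the log2 differences were 0.40 ± 0.189 (SE, adjusted p = 0.073) at day 2 and 0.26 ± 0.191 (SE, adjusted p = 0.24) at day 4 for BnaA07g38360D, and -0.41 ± 0.223 (SE, adjusted p = 0.11) and -0.32 ± 0.224 (SE, adjusted p = 0.22) for BnaC06g19090D. These estimates do not show that TSA left the genes unchanged, and under 12 of 24 alternatives the day 2 difference of BnaA07g38360D was called. That of BnaC06g19090D was called under 3 of 24 at day 2, with values from -0.44 to 0.26. At day 4 it was called under 9 of 24, with values from -0.61 to 0.81. At day 8 against day 4 BnaA07g38360D was called lower, by -0.57 ± 0.214 (SE, adjusted p = 0.031), and 12 of 24 alternatives kept that call.

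By their IDs 10 of the genes lie in the A subgenome and 18 in the C subgenome, that is 35.7% and 64.3%, where 47.2% and 52.4% of all genes with deposited log2 CPM do. The IDs place 23 of the genes on a chromosome and leave 5 unplaced. BnaC05g07890D and BnaC05g07900D have consecutive IDs, and no other member lies within 5 listed genes of another. Their courses were alike in level: BnaC05g07890D stood at 9.82, 22.7 and 27.4 CPM in heat alone day 2 and at 601, 634 and 523 in heat plus TSA day 2, and BnaC05g07900D at 15.6, 30.9 and 39.5 against 825, 837 and 827. Their log2 differences at day 2 were 4.87 ± 0.608 (SE, adjusted p = 3.8e-06) and 4.85 ± 0.543 (SE, adjusted p = 8.7e-07), and at day 4 they were 2.03 and 2.17. Whether reads were shared between them was not tested.

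Within 2 listed genes of the placed members lie 70 other genes with deposited values. Of these, 40 (57.1%) were low at day 0, against 43.9% of all genes, and 10 (14.3%) were low at day 0 and reached the culture limit in at least 1 culture, against 7.05% of all genes. In 4 cultures 3 of the 70 (4.29%) did so, against 0.254% of all genes. The 3 were BnaA02g24090D, BnaA06g01180D and BnaC06g06110D, each the direct neighbour of a member. BnaA02g24090D, next to BnaA02g24080D, had group means of -3.07 log2 CPM at day 0, 3.64 and 7.81 in heat alone days 2 and 4, and 9.19, 9.82 and 6.41 in heat plus TSA days 2, 4 and 8. It missed the rule only in heat alone day 2. The level pair BnaA07g38360D and BnaC06g19090D had a like order of neighbours. The listed gene 2 places on was low at day 0 in both cases, at -3.46 for BnaA07g38380D and -2.79 for BnaC06g19110D, and was highest in heat plus TSA day 4, at 8.65 and 7.41 log2 CPM. The genes between were expressed at day 0 already, at 3.48 and 4.36 log2 CPM. Whether these are matching stretches of the A and C subgenomes cannot be read from the files.

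**Figure D5:**
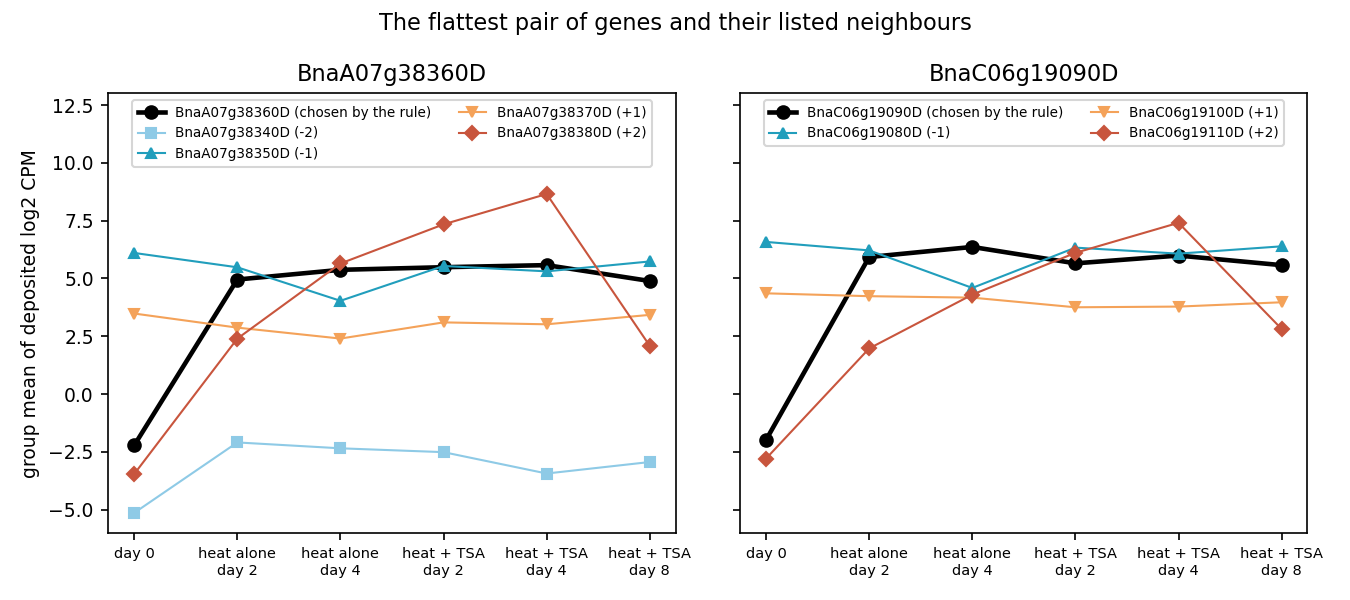
Group means of the deposited log2 CPM for the 2 members with the smallest range over the cultures (black) and their listed neighbours up to 2 places away (coloured; the number in brackets is the place). In both panels the black line is nearly flat after day 0, and the gene 2 places on climbs to its highest value in heat plus TSA day 4.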

How the data were processed

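Deposited by the authors were gene-level raw counts of 17 libraries and log2 CPM values of the genes they kept. Per the file headers, the authors' deposited table of comparisons gives log2 fold changes and false discovery rates, which are adjusted p-values. The submitters' processing notes name limma, with no version. The aligner, the counter, the build and the annotation were not given in the sources used here. In all, the count table held 101040 IDs, of which 12381 had no count. Per library, the deposited log2 CPM differed from log2 CPM recomputed with TMM scaling by a median of -0.21 to 0.16.

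Membership was read from the deposited log2 CPM. Levels and tests were computed from the counts: edgeR 4.0.16 in R 4.3.3, filterByExpr (64330 genes kept, all 28 members among them), TMM, robust quasi-likelihood fit with 1 coefficient per group over 17 libraries, two-sided, Benjamini-Hochberg over all genes tested, with calls at an adjusted p under 0.05. As SE serves the log2 difference divided by the square root of F. For each comparison 24 alternatives were run: other scalings, no filter, a replicate block, DESeq2 1.42.0, only the groups compared, and each library left out. Counts limit precision at day 0, where 11 members had 0 counts in replicate 3. The main fit did not pair same-numbered replicates, and whether they pair was not settled.

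The members, gene lists and tests were chosen with earlier results of these data known. Named are the 10 members highest over the cultures, the 2 with the lowest p per comparison and direction, the 3 with the smallest and the 3 with the largest range over the cultures, and the 2 genes on each side of each limit. Genes singled out beyond this were chosen after their values were seen. Gene products, marker lists and promoters could not be looked up, since the reference names no member otherwise.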

Additional observations from a re-analysis of the deposited data

Results flagged for a closer look

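The test of the difference between the TSA effects at day 4 and day 2 called 18 of the 28 genes, 17 with a lower log2 effect at day 4 (10.5% of all genes) and 1 with a higher (14.3%). For the genes higher with TSA on both days, the difference was -3.31 for BnaA02g24080D, -1.80 for BnaA02g34120D, -1.99 for BnaA05g21670D and -1.41 for BnaA06g01170D. It was -2.41 for BnaA09g55030D, -2.30 for BnaAnng31360D, -2.88 for BnaC01g10060D, -1.78 for BnaC03g19200D and -2.84 for BnaC05g07890D. It was -2.68 for BnaC05g07900D, -1.51 for BnaC06g06120D, -2.66 for BnaC08g02980D, -1.65 for BnaC08g44600D and -1.96 for BnaC09g41380D. For BnaCnng15600D, higher with TSA at day 2 and not called at day 4, it was -2.82. BnaC07g45470D and BnaAnng07910D were lower with TSA at day 4 and not called at day 2, with differences of -2.89 and -1.43. For BnaC07g35800D, lower on both days, it was 1.02. Heat plus TSA day 2 belongs to the run named in the labels and the other 3 groups of this test to none that is named, so the part of the run in these differences cannot be told apart. The TSA dose of the day 4 group is given in the labels as 0.5 and as 0.05 µM.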

How the results depend on the processing

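The rule gave 99 genes with a culture limit of 3 log2 CPM, 5 with a limit of 5, and 12 when every single library had to pass. From recomputed TMM-scaled values it gave 27 genes (24 shared), from library totals 19, and with 1 library left out 25 to 33. With 1 library left out, members called ran from 23 to 26 for TSA at day 2, 19 to 23 at day 4, 15 to 22 for the difference of effects, 23 to 25 for heat alone day 4 against day 2, 17 to 20 for day 8 against day 4 and 18 to 20 for day 8 against day 2. For heat plus TSA day 4 against day 2 they ran from 0 (without heat plus TSA day 2 replicate 1 or day 4 replicate 2) to 4 (without either day 8 library). That count was 2 with DESeq2. In a fit of only the groups compared it was 10 (9 higher, 1 lower), where 61.3% of all genes called were higher. The cause of these changes in the count was not tested. The other counts stayed within 1.5 times under every alternative run. With the replicate block, the count for heat plus TSA day 4 against day 2 was 2, and the others 24, 23, 20, 24, 19 and 20 in the order above. Correlations between same-numbered libraries ran from -0.143 to 0.515 and passed 0.1 in 10 of 40 pairs. For different numbers they ran from -0.538 to 0.509 and passed 0.1 in 11 of 80 pairs. These are correlations of deviations from the group means, which cancel out within a group. The values for same and different numbers are therefore not independent, and those with the day 8 libraries mirror each other. Same-numbered day 2 and day 4 libraries correlated at 0.285, 0.043 and 0.308 in heat alone and 0.292, 0.036 and 0.515 in heat plus TSA. The 0.509 was that of heat plus TSA day 2 replicate 2 with day 4 replicate 1. Whether the numbers pair the samples within a treatment was not settled. Among the called differences, that of BnaAnng07910D for TSA at day 4 changed sign, from -1.04 to 0.16 with library totals (not called there), and the others kept their sign under all 24 alternatives. Calls kept under all 24 alternatives were 23 of 24 for TSA at day 2, 16 of 23 at day 4, 13 of 18 for the difference, 23 of 23 for heat alone, 0 of 1 for heat plus TSA day 4 against day 2, 15 of 19 for day 8 against day 4 and 14 of 20 for day 8 against day 2. With library totals the median log2 difference of all genes was 0.72 at day 2 (0.06 with TMM) and 1.58 at day 4 (0.44 with TMM).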
